A study of Mus musculus with 12 samples.

Results

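The phospholipase A2 family was followed across the 4 groups through 10 listed genes, taken by symbol from a table of raw counts of 18514 genes. These are the cytosolic enzymes Pla2g4a, Pla2g4b, Pla2g4c and Pla2g4f, the secreted enzymes Pla2g2a, Pla2g5, Pla2g10 and Pla2g12a, the calcium-independent enzyme Pla2g6, and Pla2g7, the platelet-activating factor acetylhydrolase of plasma. Of the 10 symbols, 9 were rows of the table and Pla2g2a was not. All 9 passed the filter on low counts, so that no listed gene with a row was left out of the tests.

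Phospholipases A2 cut the fatty acid from the middle position of a membrane phospholipid, which releases a free fatty acid, often arachidonic acid, and a lysophospholipid. Arachidonic acid is the substrate of cyclooxygenases and lipoxygenases, and so the cytosolic enzymes stand before prostaglandin and leukotriene synthesis, while secreted members act outside the cell on membranes, lipoproteins and bacteria. In the intestine, group IVA and group X enzymes are known from epithelium, and the platelet-activating factor acetylhydrolase is known as a product of macrophages.

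RNA came from the colorectal tissue of 12 male C57BL/6 mice, bought at 4 weeks of age, with 1 library per mouse and 3 mice in each group. Ctrl mice received ordinary water and no exercise. Ctrl_Swim mice swam for up to 90 min a day, beginning 2 months before the start. Model mice received 1 injection of the carcinogen azoxymethane (AOM, 10 mg/kg) and then 3 cycles of 2% dextran sodium sulfate (DSS), an agent that inflames the colon, for 7 days each. Model_Swim mice received AOM/DSS and swam as Ctrl_Swim mice did, while mice that did not swim were placed in shallow water. The tissue was whole colon, in which fewer cells of a type and less RNA per cell cannot be told apart.

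Total counts lay between 17256953 and 19451055 per library. All 11 markers of colon epithelium were in the table, and their summed CPM (counts scaled by library size with TMM) lay between 5514 and 15681, lowest in Model 1 and Model 2. Model 1 and Model 3 also held RNA of pancreatic acinar cells (16 markers, summed CPM of 48934 and 23736, against 87.4 to 355 in the other 10 libraries). Squamous epithelium markers (16 genes) reached 1107 and 2135 CPM in Model 1 and Model 2 but 33.6 in Model 3, 182 to 1274 in Model_Swim, 13.6 to 908 in Ctrl_Swim, and 16.4 to 22.8 in Ctrl. Sprr3 was the only squamous marker at 0 in all Ctrl libraries. Traces of the most abundant pancreatic genes also divided the libraries, with Ctrl, Model and Ctrl_Swim 3 on one side and Ctrl_Swim 2, Ctrl_Swim 4 and Model_Swim on the other. Swimming in AOM/DSS mice and this division cannot be told apart.

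The composition of the 9 genes differed between Ctrl mice and all other mice mainly through Pla2g4c. Levels of different genes were compared by FPKM, which scales reads to transcript length and library size. In Ctrl mice the 9 genes summed to 199 ± 48.5 FPKM (SD, n = 3), and Pla2g4c made up 49.4% ± 12.4 of that sum. Its part was 5.59% ± 0.55 in Ctrl_Swim, 8.99% ± 6.50 in Model and 4.15% ± 3.02 in Model_Swim mice (SD, n = 3 each). The sum of the other 8 genes was 96.9 ± 1.27 FPKM in Ctrl, 93.8 ± 5.13 in Ctrl_Swim, 97.2 ± 7.86 in Model and 93.7 ± 3.75 in Model_Swim. In FPKM the groups' values of this remaining sum overlapped, as the plot shows. FPKM lacks the TMM scaling of CPM, with factors of 0.932 to 0.954 in Ctrl and 0.977 to 1.08 in the other libraries. Ctrl mice therefore stand lower against the others in FPKM than in CPM. By CPM, Pla2g10 also had every Ctrl mouse above all other mice (69.2 to 74.7 against at most 64.6 CPM). A like sum can also hold opposite shifts. Mean FPKM of Pla2g7 was 7.92 in Ctrl and 14.0 in Model, and that of Pla2g10 45.1 and 38.1.

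**Figure D1:**
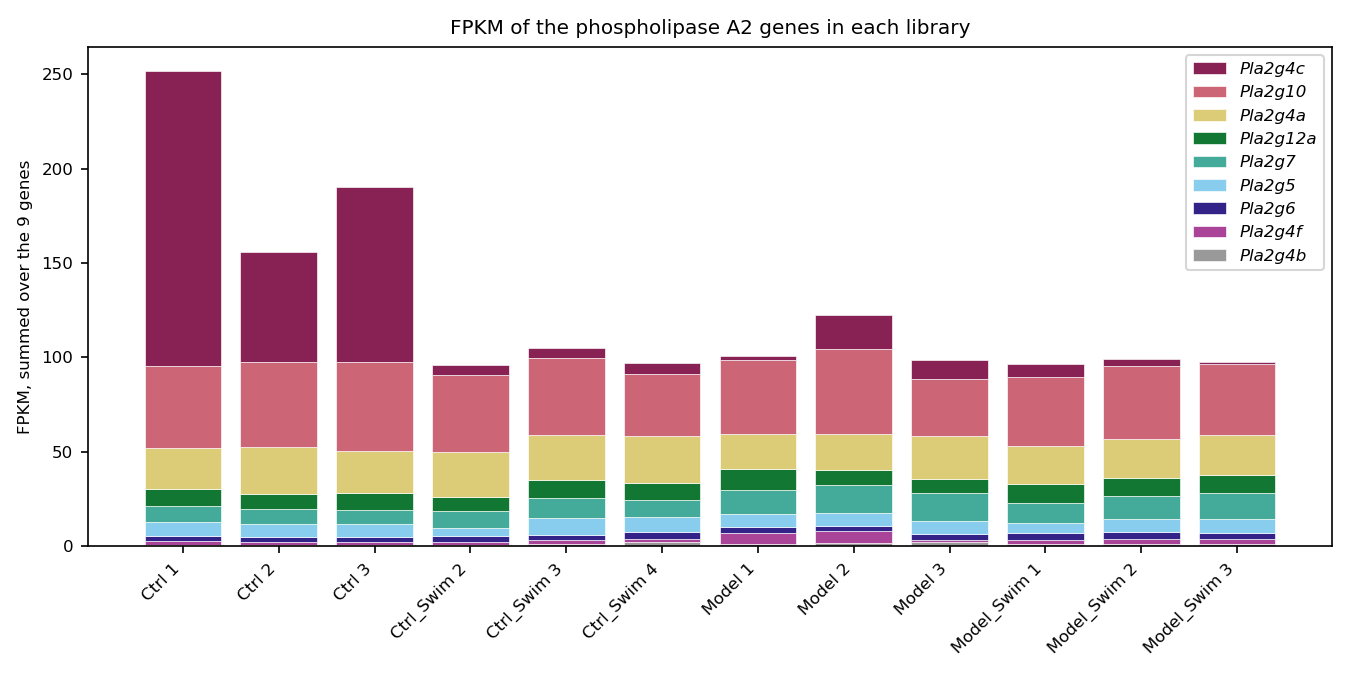
FPKM of the 9 phospholipase A2 genes in each of the 12 libraries, stacked by gene, with the summed FPKM on the vertical axis. The 3 Ctrl bars reach 156 to 252 FPKM and all others 96.0 to 123, and the difference lies mainly in the Pla2g4c segment.

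The order of the levels was otherwise alike. In Ctrl mice Pla2g4c (102 FPKM) stood first, followed by Pla2g10 (45.1) and Pla2g4a (23.0), each apart from the next in every library. In Ctrl_Swim, Model and Model_Swim mice Pla2g10 stood first (38.2, 38.1 and 37.5 FPKM) and Pla2g4a second (23.9, 20.2 and 20.4), again without overlap between neighbours. Pla2g7, Pla2g12a and Pla2g5 followed, and among them neighbours in the order overlapped in Ctrl and Ctrl_Swim mice. In Ctrl mice Pla2g12a (8.12 to 8.92 FPKM) was nevertheless apart from Pla2g5 (6.73 to 7.67 FPKM). In Ctrl_Swim, Model and Model_Swim mice Pla2g4c had 5.54, 10.1 and 4.04 FPKM and overlapped at least 1 gene next to it in the order. Pla2g6 (2.80 to 3.42 FPKM as group means) and Pla2g4f (1.65 to 4.47) came next. The mean of Pla2g4f was above that of Pla2g6 in Model mice and below it in the other groups. In Model the libraries of these genes overlapped, and Model 3 had 1.14 FPKM of Pla2g4f and 3.37 of Pla2g6. Pla2g4b had the lowest mean in every group, at 0.71 to 1.71 FPKM, although in Ctrl_Swim and Model its libraries overlapped those of Pla2g4f, and Pla2g4f was lower than Pla2g4b in Ctrl_Swim 4 and Model 3.

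Between Model and Ctrl mice, 5 of the 9 genes passed the test, an adjusted p under 0.05 in edgeR's quasi-likelihood test with Benjamini-Hochberg adjustment, where 32.7% of all 15484 genes tested did. Pla2g7, Pla2g4b and Pla2g4f were higher in Model (3 genes, against 16.5% of all genes) and Pla2g4c and Pla2g4a lower (2 genes, against 16.2%). DESeq2 called 6, these and Pla2g10, and 30.2% of 18399 genes. With a cutoff of 2-fold added, 3 genes remained, Pla2g4b, Pla2g4c and Pla2g4f (7.43% of all genes). The groups did not overlap in 6 of the 9 genes, the called ones other than Pla2g4f together with Pla2g5 and Pla2g10, against 44.2% of all genes. The median log2 fold change of the 9 genes was -0.08, and that of all genes 0.0055.

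**Figure D2:**
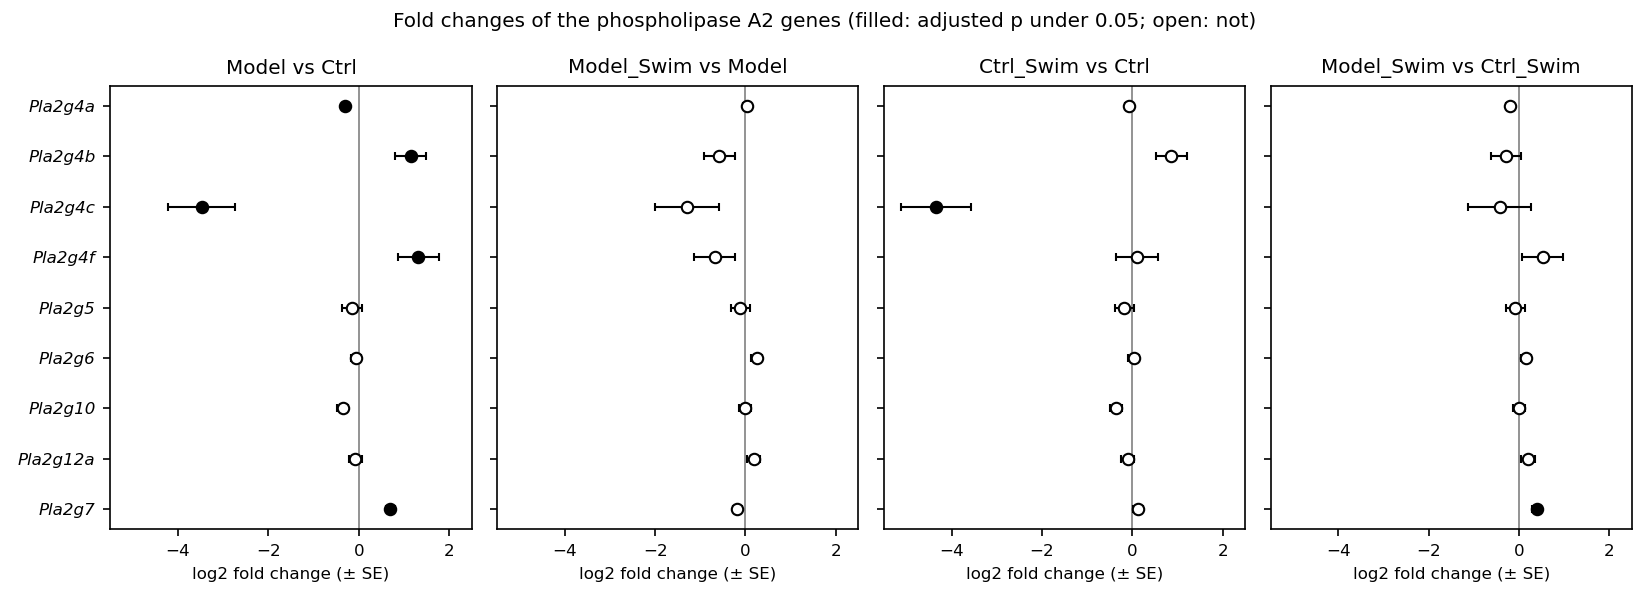
Log2 fold changes (horizontal axis, with SE) of the 9 genes in the 4 comparisons of groups, with filled points for an adjusted p under 0.05. Pla2g4c lies far to the left of the other genes between Model and Ctrl (-3.47) and between Ctrl_Swim and Ctrl (-4.34), and no point is filled between Model_Swim and Model.

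Pla2g4c encodes a cytosolic phospholipase A2 (group IVC) that lacks the calcium-binding domain of Pla2g4a and is attached to membranes. In GRCm38.p6 it spans chromosome 7 from 13311507 to 13360674 on the plus strand. Its level was 1319, 479 and 776 CPM in the 3 Ctrl mice. In Ctrl_Swim mice it was 43.9, 39.8 and 43.2 CPM. In Model mice it was 15.7, 138 and 77.5 CPM, and in Model_Swim mice 55.5, 29.3 and 9.97 CPM. Every Ctrl library was above all 9 others, and the lowest Ctrl library was 3.46 times the highest of them. The level ranged 132-fold over the 12 libraries, the widest range among the 9 genes.

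Pla2g4c was 11.1-fold lower in Model than in Ctrl mice (log2 fold change -3.47, SE 0.75, adjusted p = 0.00608), a decrease that ranked 21 among the 15484 genes by size. The call held whichever of the 12 mice was left out, with log2 fold changes from -4.20 to -2.97 and adjusted p from 0.00564 to 0.022. The call was lost with the level of acinar markers as a covariate (-2.62, adjusted p = 0.0809). Model 2 had 138 CPM, the highest of the Model mice. Its summed acinar markers (247 CPM) were below those of Ctrl mice (291 to 355 CPM). Its traces of the most abundant pancreatic genes, however, were above those of every Ctrl mouse. Model 1, with the most acinar RNA, had the lowest Pla2g4c level of the Model mice. With Model 1 and Model 3 both left out, Model 2 alone stood against the Ctrl mice at a log2 fold change of -2.65 (adjusted p = 0.0273), which assumes that the 1 remaining Model mouse varies as mice of the other groups do.

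Swimming alone went with a difference of the same direction in this gene. Between Ctrl_Swim and Ctrl mice 1 of the 9 genes passed the test, Pla2g4c, against 0.969% of all genes. It was 20.3-fold lower in Ctrl_Swim mice (log2 fold change -4.34, SE 0.78, adjusted p = 0.0348), a decrease that ranked 5 of 15484 by size. The groups did not overlap in 2 of the 9 genes, Pla2g4c and Pla2g10 (27.4% of all genes). Ctrl_Swim 3, which shared the side of Ctrl mice in the division by pancreatic traces, had 39.8 CPM of Pla2g4c. Ctrl_Swim 2 and Ctrl_Swim 4, on the other side, had 43.9 and 43.2 CPM. The part of the division in the Pla2g4c result was not tested beyond a fit with a term for it, given below. Pla2g4b had a log2 fold change of 0.86 (SE 0.35, adjusted p = 0.239). The values of Pla2g4a, Pla2g4f, Pla2g6, Pla2g12a, Pla2g5 and Pla2g7 lay between -0.18 for Pla2g5 and 0.13 for Pla2g7, with adjusted p from 0.541 to 0.927.

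The Pla2g4c call between Ctrl_Swim and Ctrl was lost when any of the 3 Ctrl mice, any of the 3 Ctrl_Swim mice or Model_Swim 2 was left out (adjusted p from 0.0685 to 0.159), while the log2 fold change stayed between -4.62 and -3.87 in all fits of that kind. It was also lost with a term for the division (log2 fold change -4.43, SE 1.34, adjusted p = 0.456), with the level of squamous markers as a covariate (-4.36, SE 0.86, adjusted p = 0.0703), and with limma at a pseudocount of 0.1 FPKM or without a filter, whereas DESeq2 gave 7.29e-06.

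Some markers of secretory cells moved with Pla2g4c and others did not. The summed CPM of 7 goblet cell markers was 38856 to 49555 in Ctrl, 14237 to 18465 in Ctrl_Swim, 14697 to 34878 in Model and 17466 to 31455 in Model_Swim mice. Of these genes 3 were lower in Ctrl_Swim (0.801% of all genes) and the same number in Model (16.2% of all genes), namely Clca1, Spink4 and Agr2 in both comparisons. Zg16, a goblet cell lectin, was at 1709 to 1913 CPM in Model, above the 1110 to 1699 CPM of Ctrl mice, without passing the test (adjusted p = 0.153). The summed CPM of 8 markers of Paneth cells was 2404 to 3248 in Ctrl, 335 to 604 in Ctrl_Swim, 598 to 1184 in Model and 675 to 1319 in Model_Swim mice. Ang4, a secreted antimicrobial protein, and Itln1, a lectin of secretory cells, were lower in Ctrl_Swim (log2 fold changes -2.95 and -2.61, adjusted p = 0.0442 and 0.0431) and in Model (-1.92 and -2.03, adjusted p = 0.023 and 0.0106). In Ctrl_Swim the calls of these and of Clca1, Spink4 and Agr2 were lost when any mouse of Ctrl or Ctrl_Swim, Model_Swim 1 or Model_Swim 2 was left out (adjusted p up to 0.213), and with the term for the division (0.425 to 0.462). In Model, Ang4 was lost without Ctrl 1 or Model 1, and Clca1 in 9 of the 12 fits without 1 mouse. In Ctrl mice Ang4 alone made up 75.7 to 94.0% of the Paneth sum. The other 7 markers summed to 195 to 687 CPM in Ctrl, 82.3 to 286 in Ctrl_Swim, 31.4 to 729 in Model and 329 to 449 in Model_Swim mice. Each of the other groups thus overlapped Ctrl, while all Model_Swim mice lay above all Ctrl_Swim mice. Of all 8 markers 4 were lower and 1 higher between Model and Ctrl, with a median log2 fold change of -1.98. The defensins Defa21 (31.3 CPM in Ctrl and 2.03 in Model as means, adjusted p = 0.0202) and Defa22 (31.8 and 3.14, adjusted p = 0.0366) were lower in Model and did not pass the test in Ctrl_Swim (adjusted p = 0.75 and 0.804). The call of Defa21 was lost without Ctrl 2 or Model 2, and that of Defa22 in 7 of the 12 fits without 1 mouse. Lyz1 was at 24.8 to 261 CPM in Ctrl and 172 to 282 in Model_Swim mice, and Mmp7 was higher in Model than in Ctrl mice (3.43, SE 0.98, adjusted p = 0.022), though with overlap and not without Model 1 or any Ctrl mouse. No marker of either list was at 0 in all libraries of a group. Every Ctrl library lay above the 9 others in the goblet sum, the Paneth sum and Ang4, as it did for Pla2g4c, and the part of these cells in the Pla2g4c result was not tested.

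**Figure D3:**
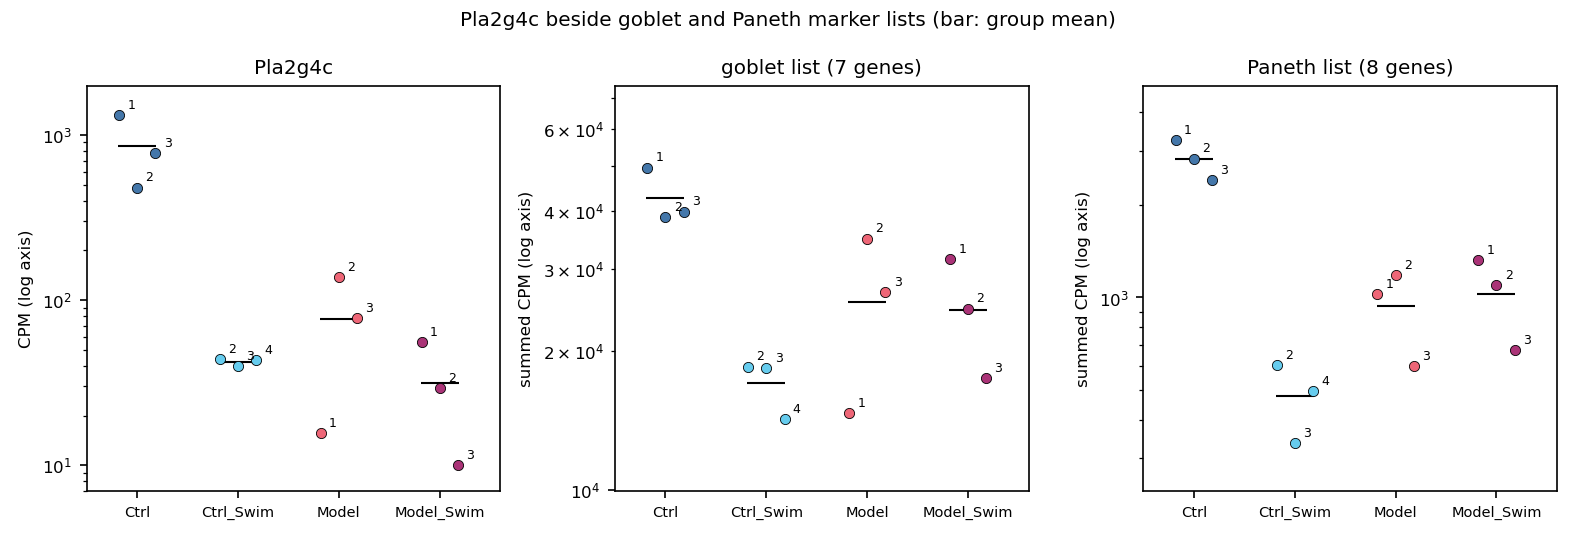
CPM of Pla2g4c and summed CPM of the goblet and Paneth marker lists in each library (numbered points, log axes), with the group means as bars. Ctrl mice are highest in all 3 panels, with Pla2g4c at 479 to 1319 CPM, goblet sums of 38856 to 49555 and Paneth sums of 2404 to 3248, of which Ang4 is 75.7 to 94.0%.

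The bases before 2 starts of Pla2g4c transcripts are shown because this gene carried the largest difference of the family. RefSeq (GRCm38.p6) gives 2 windows, of which the 250 bases before the start are printed on the plus strand, from chr7:13325417-13325666 and chr7:13329072-13329321. Both lie inside the span given above, and the bases before its outermost start are not shown. Capitals mark a match to the letters GGGA, any 4 bases and CC, a pattern like that bound by NF-kB, and the first window holds no match.
Pla2g4c window 1: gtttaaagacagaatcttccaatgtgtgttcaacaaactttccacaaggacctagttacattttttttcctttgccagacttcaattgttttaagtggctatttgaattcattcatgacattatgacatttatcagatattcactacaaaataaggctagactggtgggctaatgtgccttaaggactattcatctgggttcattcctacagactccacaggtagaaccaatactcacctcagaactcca
Pla2g4c window 2: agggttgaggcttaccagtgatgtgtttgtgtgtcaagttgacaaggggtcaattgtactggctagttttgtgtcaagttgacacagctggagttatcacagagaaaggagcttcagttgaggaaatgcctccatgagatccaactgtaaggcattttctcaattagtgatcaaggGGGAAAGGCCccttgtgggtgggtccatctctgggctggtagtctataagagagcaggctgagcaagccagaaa
The match begins at base 177 of the second window, counted from its first base. Of 32851 RefSeq windows of 300 bases, 20.7% hold such a match on either strand. Neither window holds TATAAA (13.6% of windows), CACGTG (7.15%) or TGANTCA (7.81%). Of the 10 listed genes 8 had a window in the table, 11 windows in all, and the letters of a window describe the sequence alone.

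Pla2g4a encodes the calcium-dependent, arachidonate-selective enzyme of group IVA, and lies on chromosome 1 from 149829618 to 149961290. Its level was 72.2, 79.6 and 71.5 CPM in Ctrl and 56.4, 56.6 and 68.6 CPM in Model mice. All Model mice were below all Ctrl mice, with Model 3 nearest to them. The summed CPM of colon epithelium markers was 5514, 6366 and 10108 in Model 1, 2 and 3 and 12676 to 13704 in Ctrl mice, and 5 of the 11 markers were lower (16.2% of all genes). Their part in the Pla2g4a result was not tested. Pla2g4a was 1.23-fold lower in Model (log2 fold change -0.30, SE 0.08, adjusted p = 0.0163). The call was lost without Ctrl 2 or Model 2 (adjusted p = 0.0732 and 0.0647), and in 6 other alternatives. Among these were the acinar covariate (log2 fold change -0.36, adjusted p = 0.0531), the squamous covariate (-0.21, adjusted p = 0.137) and limma on FPKM. Ctrl_Swim mice had 69.5 to 73.4 CPM and Model_Swim mice 60.0 to 63.0 CPM, again without overlap, at a log2 fold change of -0.20 (SE 0.08, adjusted p = 0.168) that did not pass the test. The summed epithelium markers of these groups did overlap, at 11217 to 15681 CPM in Ctrl_Swim and 12102 to 12474 CPM in Model_Swim mice.

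Pla2g4b encodes a cytosolic phospholipase A2 of group IVB, and had the lowest group means of the 9 genes. Counts were 36 to 69 per library in Ctrl and 74 to 144 in Model mice. This was 3.81, 2.94 and 1.98 CPM in Ctrl and 3.97, 7.19 and 8.27 CPM in Model. The groups did not overlap, but Ctrl 1 and Model 1 lay next to each other. Pla2g4b was 2.22-fold higher in Model (log2 fold change 1.15, SE 0.35, adjusted p = 0.0271), and the call was lost without Ctrl 2, Ctrl 3, Model 2 or Model 3 (adjusted p from 0.0661 to 0.0937) and in 3 other alternatives. Among these were the acinar covariate (log2 fold change 1.40, adjusted p = 0.0586) and the squamous covariate (1.12, adjusted p = 0.0839). The values are uncertain as a measure of this gene, since 66.5% of its exonic bases on chromosome 2 are shared with Gm28042, a readthrough gene on the same strand. A further gene, Sptbn5, covers 13.6% of them on the opposite strand. Ctrl_Swim mice had 3.51 to 7.41 CPM, highest in Ctrl_Swim 4, and Model_Swim mice 4.33 ± 0.59 CPM (SD, n = 3). The summed CPM of B cell markers was 133 to 152 in Model mice and 140 in Ctrl_Swim 4, against 33.0 to 70.1 in the other libraries. Model 1, with 136 CPM of these markers, had 3.97 CPM of Pla2g4b. T cell markers summed to 53.4, 65.4 and 81.0 CPM in Model 1, 2 and 3 and to 67.6 CPM in Ctrl_Swim 4. In the other libraries their sum was 24.5 to 54.9 CPM. The part of B cells and T cells in the Pla2g4b result was not tested.

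Pla2g4f encodes a cytosolic phospholipase A2 of group IVF. Model 1 and Model 2 had 20.4 and 19.2 CPM, while Model 3, at 3.73 CPM, was the lowest of all 12 libraries. Ctrl mice had 4.63 to 6.71 CPM, so that the groups overlapped, and the increase of 1.32 on the log2 scale (SE 0.45, adjusted p = 0.046) rested close to the threshold. It was lost in 11 of the 12 fits that left out 1 mouse (adjusted p up to 0.139) and in 8 other alternatives (adjusted p from 0.0586 to 0.655). Without Model 3 the adjusted p was 5.99e-05. The level of squamous markers followed the same mice (1107, 2135 and 33.6 CPM in Model 1, 2 and 3), and with it as a covariate the log2 fold change was 0.37 (adjusted p = 0.655). Model_Swim 1, with 182 CPM of squamous markers, had 8.42 CPM of Pla2g4f, against 9.08 and 9.49 CPM in Model_Swim 2 and 3, with 1213 and 1274 CPM. The part of squamous epithelium in the Pla2g4f result was not tested beyond this.

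**Figure D4:**
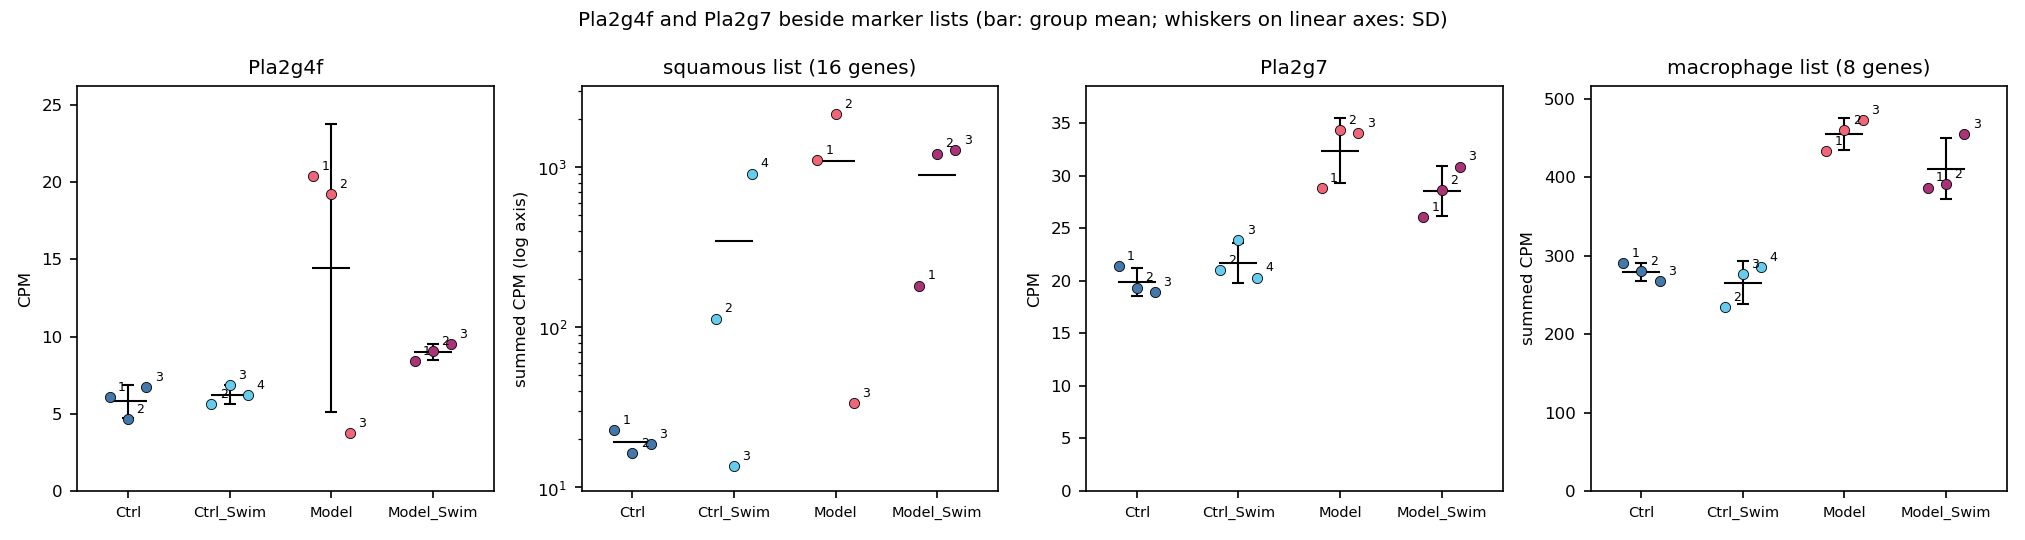
CPM of Pla2g4f and Pla2g7 beside the summed CPM of squamous markers (log axis) and macrophage markers in each library (numbered points), with bars for group means and whiskers for SD on linear axes. Model 3 is low in Pla2g4f (3.73 CPM) and in squamous markers (33.6 CPM), whereas Pla2g7 and the macrophage sum are higher in all AOM/DSS mice than in all others.

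Pla2g7 encodes the secreted acetylhydrolase that breaks down platelet-activating factor and oxidised phospholipids, and lies on chromosome 17 from 43567994 to 43612202. Its level was 21.4, 19.4 and 18.9 CPM in Ctrl and 28.8, 34.3 and 34.0 CPM in Model mice. The groups stood well apart. Pla2g7 was 1.63-fold higher in Model (log2 fold change 0.70, SE 0.10, adjusted p = 0.000997), and this call held in all 24 alternative fits, with log2 fold changes from 0.67 to 0.81, but the difference was under the cutoff of 2-fold. Among swimming mice, Ctrl_Swim had 21.0, 23.8 and 20.3 CPM and Model_Swim 26.1, 28.6 and 30.9 CPM, also without overlap.

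Pla2g7 was the only one of the 9 genes to pass the test between Model_Swim and Ctrl_Swim (log2 fold change 0.39, SE 0.10, adjusted p = 0.0471), where 5.18% of all genes did. The groups did not overlap in 5 of the 9 genes there, against 32.4% of all genes, namely Pla2g7, Pla2g4a, Pla2g4f, Pla2g6 and Pla2g12a. Pla2g4f had a log2 fold change of 0.53 (SE 0.45, adjusted p = 0.539). In Pla2g4b, Pla2g4c, Pla2g5 and Pla2g10 the values lay between -0.42 for Pla2g4c and -0.0053 for Pla2g10, with adjusted p from 0.669 to 0.985. The Pla2g7 call was lost when any mouse of Ctrl, Ctrl_Swim or Model_Swim was left out (adjusted p from 0.0651 to 0.152) and in 8 other alternatives. The difference between 0.70 and 0.39 was -0.31 (SE 0.14, adjusted p = 0.266) as an interaction and did not pass the test. Macrophage markers moved with Pla2g7, with summed CPM of 268 to 291 in Ctrl, 235 to 285 in Ctrl_Swim, 434 to 473 in Model and 387 to 456 in Model_Swim mice. Of the 8 markers, 7 were higher between Model and Ctrl (16.5% of all genes) and 5 between Model_Swim and Ctrl_Swim (3.49% of all genes). None was at 0 in all libraries of a group, and their part in the Pla2g7 result was not tested. Other immune markers were also higher between Model and Ctrl, namely 6 of 7 for B cells, 5 of 6 for T cells and 4 of 8 for neutrophils. Between Model_Swim and Ctrl_Swim 1 neutrophil marker was higher, and no B cell or T cell marker. Of 7 mast cell markers, 2 were higher in each of these comparisons. Among swimming mice Tpsb2 was 1 of them (log2 fold change 3.01, adjusted p = 0.0079), and its call held whichever mouse was left out. Summed CPM of the mast cell markers was 105 to 121 in Ctrl_Swim and 145 to 202 in Model_Swim, while Model (118 to 167) overlapped Ctrl (124 to 174). An antisense gene, 1700071M16Rik, covers 10.98% of the exonic bases of Pla2g7.

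Pla2g10, Pla2g5, Pla2g12a and Pla2g6 passed edgeR's test in none of the comparisons. Pla2g10, the group X enzyme known from colon epithelium, had 69.2, 70.5 and 74.7 CPM in Ctrl mice, above every other library. It was 57.4, 64.6 and 45.2 CPM in Model mice and 62.3, 58.7 and 45.8 CPM in Ctrl_Swim mice. The log2 fold change was -0.36 (SE 0.13) in both comparisons, and did not pass the test in either (adjusted p = 0.0544 between Model and Ctrl and 0.202 between Ctrl_Swim and Ctrl). Between Model and Ctrl it passed by DESeq2 (0.0375) and without Ctrl_Swim 4 or Model 2 (0.0431 and 0.0333). Model_Swim mice had 54.3 to 56.6 CPM.

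Pla2g5, a group V secreted enzyme, had 20.4 to 23.5 CPM in Ctrl, 12.2 to 24.8 in Ctrl_Swim, 19.2 to 20.4 in Model and 14.5 to 20.9 in Model_Swim mice. Its widest spread lay within Ctrl_Swim, where Ctrl_Swim 2 had the lowest and Ctrl_Swim 3 the highest level of all 12 libraries. Pla2g12a, a group XII secreted enzyme, had 14.8 to 16.5 CPM in Ctrl and 12.9 to 19.2 CPM in Model mice, which overlapped. Pla2g6, the calcium-independent enzyme that remodels membrane phospholipids, had 13.7 to 14.1 CPM in Ctrl and 11.8 to 15.6 CPM in Model mice, which overlapped too. In Model against Ctrl mice, log2 fold changes were -0.14 (SE 0.21) for Pla2g5, -0.08 (SE 0.15) for Pla2g12a and -0.06 (SE 0.12) for Pla2g6, with adjusted p of 0.632, 0.711 and 0.722. Model_Swim mice had 15.4 to 16.2 CPM of Pla2g6 and 16.9 to 17.3 CPM of Pla2g12a, each above all Ctrl_Swim mice, but at log2 fold changes of 0.15 and 0.20 neither passed the test (adjusted p = 0.485 and 0.461). Pla2g2a, known to carry a frameshift in C57BL/6 mice, is annotated as a pseudogene in RefSeq and had no row.

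**Figure D5:**
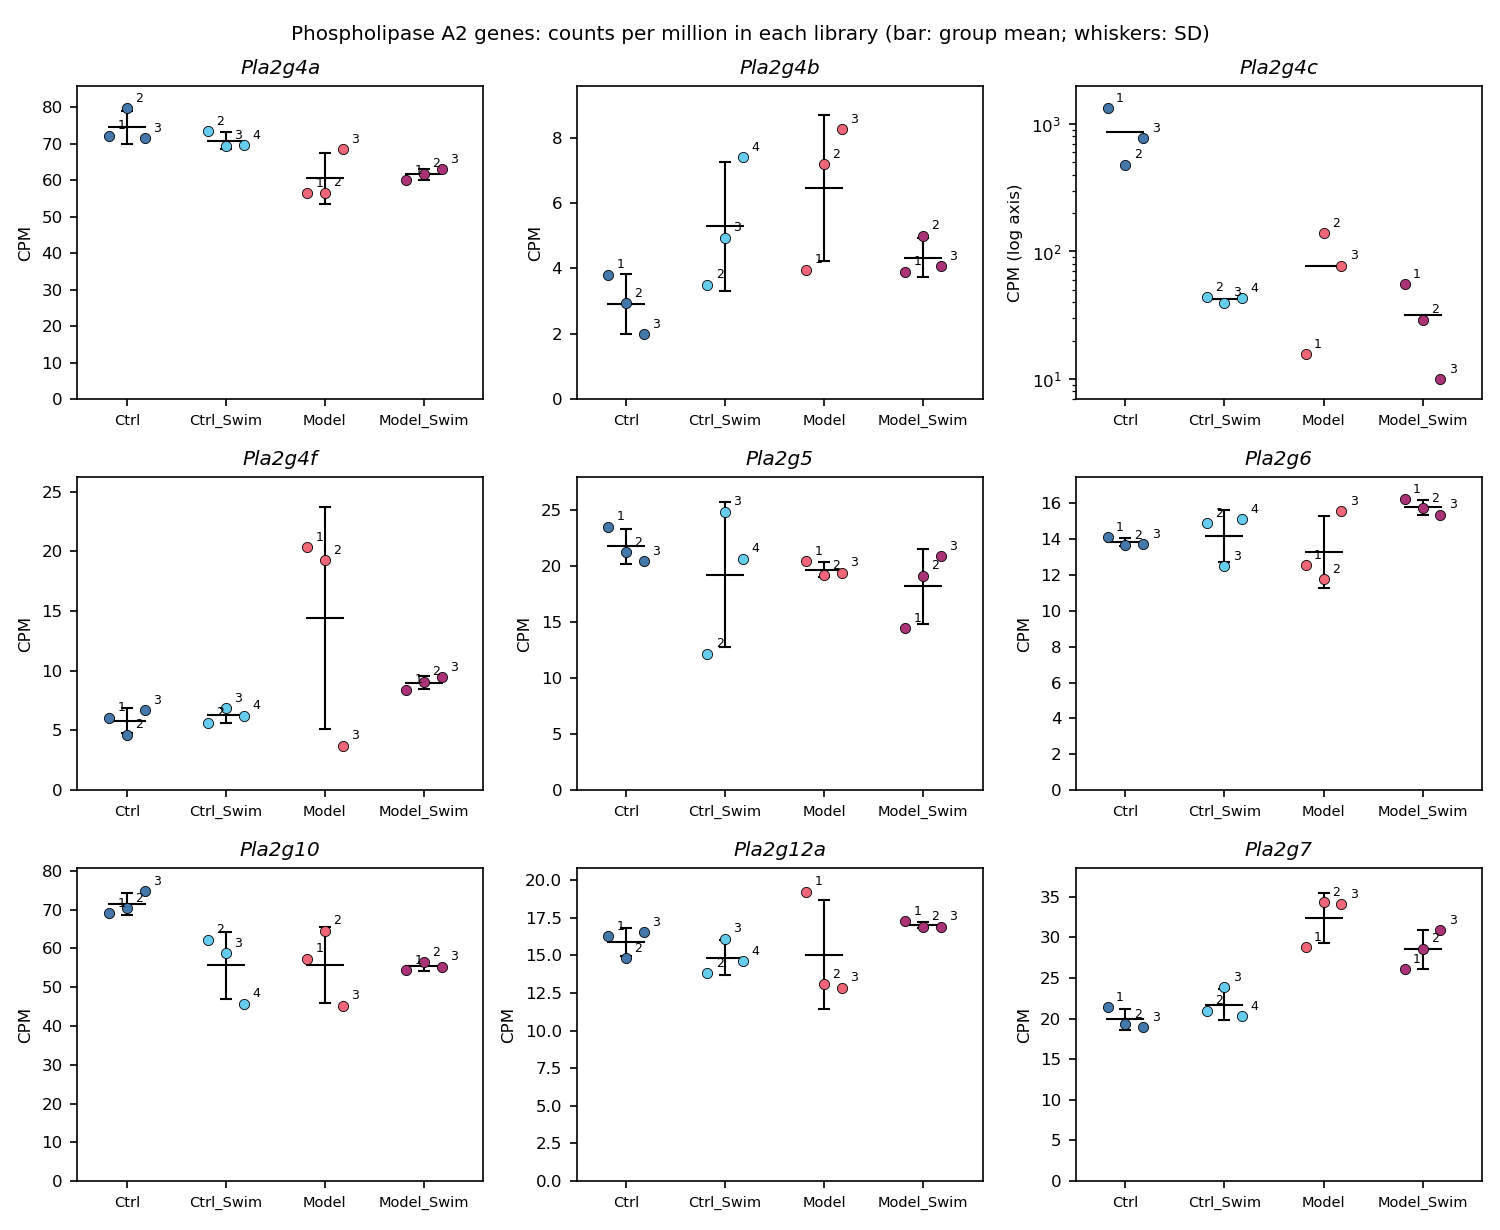
CPM of the 9 genes in each library, 1 panel per gene (log axis for Pla2g4c), with numbered points for mice, bars for group means and whiskers for SD on linear axes. Pla2g4c is at 479 to 1319 CPM in Ctrl and at most 138 CPM elsewhere, Pla2g7 is higher in both AOM/DSS groups, and Model 3 stands apart in Pla2g4f at 3.73 CPM.

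Between Model_Swim and Model mice none of the 9 genes passed edgeR's test, where 11 genes in all did (0.071%). None had an unadjusted p under 0.05 either (13.6% of all genes), none was called by DESeq2 (1.96% of 18399 genes), and in none were the groups apart (16.9% of all genes). Log2 fold changes lay between -1.29 (SE 0.70, adjusted p = 0.458) for Pla2g4c and 0.25 (SE 0.12, adjusted p = 0.394) for Pla2g6. Pla2g4b had -0.58 (SE 0.34, adjusted p = 0.492). Pla2g7, Pla2g5, Pla2g10, Pla2g4a and Pla2g12a lay between -0.18 for Pla2g7 and 0.18 for Pla2g12a, with adjusted p from 0.458 to 0.988. For Pla2g4f the value was -0.68 (SE 0.45, adjusted p = 0.534), and without Model 3 it was -1.13 (SE 0.16, adjusted p = 0.00254), in a fit that called 882 of 15681 genes (5.62%).

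Whether the difference between swimming and other mice depended on AOM/DSS was tested as an interaction. None of the 9 genes passed edgeR's test, nor did any gene of the table (0 of 15484, 0%), and DESeq2 called none of the 9 but 4.22% of 18399 genes. An unadjusted p under 0.05 was given for 2 of the 9, and for 19% of all genes. They were Pla2g4c (3.05, SE 0.99, adjusted p = 0.152) and Pla2g4b (-1.44, SE 0.49, adjusted p = 0.161). For Pla2g4c this is the difference between -1.29 with AOM/DSS and -4.34 without it. Pla2g4f had -0.79 (SE 0.64, adjusted p = 0.535). Pla2g5, Pla2g4a, Pla2g6, Pla2g12a and Pla2g10 lay between 0.06 for Pla2g5 and 0.35 for Pla2g10, with adjusted p from 0.321 to 0.93. Without Model 3, Pla2g4f passed (-1.26, SE 0.22, adjusted p = 0.0148), as did 716 of 15681 genes (4.57%). Without Ctrl_Swim 2 the number over all genes was 195, and none of the 9 was among them.

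Of 13 other genes of the phospholipase A2 groups and related enzymes, 11 were tested between Model and Ctrl. Of these 2 were higher and 2 lower, where 32.7% of all genes were called (16.5% higher and 16.2% lower), and the median log2 fold change was 0.02. Prdx6, a peroxiredoxin with such activity, was by far the most abundant by FPKM (388 to 481 as group means), above Pla2g4c in Ctrl mice. Pla2g16, a phospholipase of adipocytes and other cells, had 85.6 to 91.9 CPM in Ctrl, 41.0 to 58.1 in Model, 57.4 to 66.3 in Ctrl_Swim and 56.0 to 60.3 in Model_Swim mice. It was lower in Model (log2 fold change -0.78, SE 0.12, adjusted p = 0.00115), and as with Pla2g4c and Pla2g10 all Ctrl libraries were above the 9 others. Pla2g12b, an enzymatically inactive relative of Pla2g12a, was also lower in Model (-1.76, SE 0.37, adjusted p = 0.00522), at 0.54 to 1.61 CPM against 2.76 to 4.40 in Ctrl. Pla2g15, the lysosomal enzyme, was higher in Model (0.49, SE 0.13, adjusted p = 0.0154).

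Pla2g2e passed as higher, but its counts in Ctrl mice were at most 0.11 CPM, below the 0.164 to 0.166 CPM that 3 counts give in these libraries, and 0.06 CPM in Model 3. Its call was lost in 8 of the 12 fits without 1 mouse and with the squamous covariate (adjusted p = 0.667). Pla2g1b, the pancreatic enzyme, had 136 and 52.2 CPM in Model 1 and Model 3 and at most 0.17 CPM in the other 10 libraries, beside the acinar markers. Pla2g2f, a secreted enzyme of skin and other epithelia, resembled Pla2g4f in that Model 3 was its lowest library, at 5.28 CPM against 53.2 and 43.9 CPM in Model 1 and Model 2. In Model against Ctrl mice it differed by 0.02 on the log2 scale (SE 0.55). Pla2g3 and Pnpla8, at -0.51 (SE 0.25) and -0.05 (SE 0.09), did not pass the test either. Pla2g2c (1.74 CPM as the Model mean), Pla2g2d (8.76), Pla2g4e (1.84) and Pla2g4d (0.28) were low.

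Genes that act on the enzymes and their products were read from 4 further lists between Model and Ctrl, beside 32.7% of all genes called. Of 11 regulators, 4 were higher and 2 lower, with a median log2 fold change of 0.15. The annexins Anxa1 (1.47, SE 0.45), Anxa6 (0.45, SE 0.06) and Anxa5 (0.42, SE 0.07), which bind phospholipids and can limit access of phospholipase A2 to them, were higher. So was the receptor of secreted phospholipases, Pla2r1 (0.67, SE 0.17). The kinase Mapk3, which phosphorylates the group IVA enzyme, was lower (-0.48, SE 0.09). The adjusted p of the regulators named lay between 0.000677 for Anxa6 and 0.0291 for Anxa1. The call of Anxa1 was lost without Model 2 or any Ctrl mouse, and with the level of squamous markers as a covariate its log2 fold change was 0.42 (adjusted p = 0.493). That of Pla2r1 was lost without Ctrl 2 and with the squamous covariate (adjusted p = 0.0996).

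Of 9 genes of reacylation, which return fatty acids to phospholipids, 2 were higher and 1 lower (median -0.06). These were Lpcat4 (0.53, SE 0.18, adjusted p = 0.0463) and Acsl4 (0.52, SE 0.15, adjusted p = 0.0227), an arachidonate-preferring acyl-CoA synthetase, and Acsl5 (-0.24, SE 0.08, adjusted p = 0.0392). The calls were lost in 8, 3 and 10 of the 12 fits without 1 mouse for Lpcat4, Acsl4 and Acsl5. With the squamous covariate Lpcat4 and Acsl4 did not pass (adjusted p = 0.267 and 0.175), while Acsl5 did (0.0222). Of 15 genes of platelet-activating factor and lysophospholipids, 2 were higher and 4 lower (median 0.01). Ptafr, the receptor of platelet-activating factor, was higher (0.89, SE 0.25, adjusted p = 0.0219), as was Enpp2, which makes lysophosphatidic acid (0.61, SE 0.16, adjusted p = 0.014). The lysophospholipases Lypla1 (-0.51, SE 0.10) and Lypla2 (-0.29, SE 0.09) and the intracellular acetylhydrolases Pafah1b3 (-0.43, SE 0.11) and Pafah2 (-0.37, SE 0.07) were lower, unlike the secreted acetylhydrolase Pla2g7. Their adjusted p lay between 0.00335 for Lypla1 and 0.0246 for Lypla2. Without 1 mouse the call of Lypla2 was lost in 4 fits, that of Ptafr in 3 and that of Pafah1b3 in 1. With the squamous covariate Ptafr, Enpp2 and Lypla2 did not pass (adjusted p = 0.0809, 0.088 and 0.233), while Lypla1, Pafah1b3 and Pafah2 did.

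Of 11 genes that oxygenate arachidonic acid, 3 were higher and 2 lower (median 0.28). Alox12 (3.05, SE 0.73, adjusted p = 0.0102) and Alox15 (2.77, SE 0.97, adjusted p = 0.0472), lipoxygenases, were higher with overlap between the groups. As with Pla2g4f, Model 3 was the lowest of all 12 libraries in both (1.95 and 0.75 CPM), while Model 1 and Model 2 had 34.8 and 19.7 CPM of Alox12 and 19.6 and 32.0 CPM of Alox15. With the level of squamous markers as a covariate neither passed (adjusted p = 0.308 and 0.886), and Alox15 was lost in 10 of the 12 fits without 1 mouse. Ptges, a prostaglandin E synthase, was higher without overlap (1.33, SE 0.18, adjusted p = 0.000863). Alox5, which begins leukotriene synthesis, and Ptges2 were lower (-0.63 and -0.61, SE 0.18 and 0.13, adjusted p = 0.0224 and 0.00508), and Alox5 lost its call without Ctrl 1, Ctrl 3 or Model 2. With the squamous covariate Alox5 and Ptges2 did not pass (adjusted p = 0.11 and 0.0507), while Ptges did (0.00831). The cyclooxygenases Ptgs1 (0.29, SE 0.14, adjusted p = 0.141) and Ptgs2 (0.71, SE 0.27, adjusted p = 0.0591) did not pass the test. By DESeq2 Ptgs2 passed (adjusted p = 0.0286), and also between Model_Swim and Ctrl_Swim (0.00863, against 0.0636 by edgeR).

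Over all 5 lists, 57 of 59 genes were tested. Between Model and Ctrl edgeR called 24, against 32.7% of all genes. Of the 24, 12 were called in all 12 fits without 1 mouse, a share not given here for all genes. Between Model_Swim and Ctrl_Swim, 3 were higher and none lower, against 5.18% of all genes called (3.49% higher). They were Lpcat4 (0.91, SE 0.18, adjusted p = 0.0227), Ptafr (1.28, SE 0.26, adjusted p = 0.0224) and Ptges (0.71, SE 0.18, adjusted p = 0.0495), each without overlap. All 3 calls were lost without Ctrl_Swim 2, Ctrl_Swim 3, Model_Swim 1 or Model_Swim 3. In the interaction and in the remaining pair of comparisons edgeR called none of the 57. An unadjusted p under 0.05 was found in 8 of them between Model_Swim and Model (13.6% of all genes), 6 between Ctrl_Swim and Ctrl (17.6%) and 11 in the interaction (19%). DESeq2, read over all 59, called 28 between Model and Ctrl (30.2% of 18399 genes) and 9 between Model_Swim and Ctrl_Swim (8.49%). It called 3 between Model_Swim and Model (Mapk3, Pla2g12b and Pla2g1b), against 1.96%. It called 1 between Ctrl_Swim and Ctrl (Pla2g16), against 3.58%, and 3 in the interaction (Pla2g16, Pla2g1b and Pla2g3), against 4.22%.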

How the data were processed

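RNA of mouse colorectal tissue was sequenced from 12 mice, 1 library each. The sample descriptions name a mirVana kit for extraction, and the study's methods TRIzol. The library kit was TruSeq Stranded mRNA. Trimmomatic served the authors for trimming, HISAT2 for alignment to GRCm38.p6, and HTSeq-count for the counts of reads per gene. Versions, the annotation and the strand setting are not given in the sources used here. The deposited raw counts are whole numbers, and the deposited FPKM values were computed by the authors with Cufflinks and were proportional to each listed gene's share of the counts.

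The counts were tested in R 4.3.3 with edgeR 4.0.16, with TMM scaling, filterByExpr (minimum count of 10, leaving 15484 of 18514 genes) and 1 quasi-likelihood model with a term per group and no covariate. P-values were adjusted by Benjamini-Hochberg over all genes tested, and a gene was called at an adjusted p under 0.05. The code was tested on simulated data. With totals of 17256953 to 19451055 counts, the 3 counts that a count of 0 allows are 0.153 to 0.172 CPM, which covers counting error only. Nothing in the labels pairs mice across groups.

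The alternatives were DESeq2 1.42.0, its size factors in edgeR, no filter, a fit of only the groups compared, a replicate block, limma 3.58.1 on log2(FPKM + 1) or log2(FPKM + 0.1) with a mean FPKM of at least 0.5 or no filter, marker covariates, a term for the division by pancreatic traces, an added cutoff of 2-fold, and 12 fits without 1 mouse each. A fit without Model 1 and Model 3 was chosen after seeing the data. The listed genes and the pathway and marker lists were chosen with earlier results of these data known. The text names every listed gene in every comparison, up to 4 called genes in each direction of a pathway list, and the other phospholipase A2 genes for their level, except 1 gene that is not reported here. Overlap with other genes was read from GENCODE vM21, and promoter windows from RefSeq.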

Additional observations from a re-analysis of the deposited data

How the results depend on the processing

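Over 45 combinations of a gene and a comparison, 1071 alternative values were computed. Of these, 998 stayed on the same side of the threshold, 64 lost a call, 9 gained one and none that was called turned its direction. A change of sign occurred in 57 values, in 17 combinations and never where a call was made. The causes of the changes were not tested.

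Between Model and Ctrl, 5 genes were called. The number was 6 by DESeq2, 4 with the term for the division, 2 in a fit of only these groups, 3 with each of the 3 limma settings, 1 with the acinar covariate (Pla2g7), 2 with the squamous covariate, 3 with the 2-fold cutoff and 2 to 5 without 1 mouse. Between Ctrl_Swim and Ctrl the number went from 1 to 0 with limma at a pseudocount of 0.1, limma without a filter, the squamous covariate and the term for the division, and was 0 to 1 without 1 mouse. Between Model_Swim and Ctrl_Swim it went from 1 to 0 without the filter, with each limma setting, both covariates, the term for the division and the 2-fold cutoff, was 0 to 1 without 1 mouse, and was 2 without Model 1 and Model 3. In the interaction, and likewise between Model_Swim and Model, it was 0 to 1 without 1 mouse and 1 without Model 1 and Model 3, in each case through Pla2g4f. The fit without Model 1 and Model 3 leaves 1 Model mouse, which is assumed to vary as the mice of the other groups do.

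Nothing in the labels says that the replicate numbers pair the mice. Correlations of the deviations of same-numbered libraries ranged from -0.26 to 0.56. Libraries with different numbers were not correlated, so these values cannot decide whether mice were paired. With the replicate number as a block, the number called was 5 between Model and Ctrl, with Pla2g10 in place of Pla2g4f, 0 between Ctrl_Swim and Ctrl, and 0 between Model_Swim and Ctrl_Swim. Ctrl_Swim 4 has a number of its own, so that the block leaves it out of the comparison.

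The part of Pla2g4c in the summed FPKM was 43.0 to 55.4% in Ctrl, 5.34 to 5.89% in Ctrl_Swim, 6.05 to 12.5% in Model and 2.56 to 5.57% in Model_Swim mice when 1 mouse was left out. Depth limits Pla2g4b most, at 36 to 145 counts per library. With 3 mice against 3, differences within the spread of the mice remain undetected.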

Other observations

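Lig1 and Cabp5, neighbours of Pla2g4c on chromosome 7, were looked at for their position and after the values of Pla2g4c were known. Lig1, the DNA ligase of replication, had 67.3 to 74.0 CPM in Ctrl mice. It had 53.5 to 57.3 CPM in Ctrl_Swim, 49.9 to 57.8 in Model and 48.2 to 52.2 in Model_Swim mice. As with Pla2g4c, all Ctrl mice were above the 9 others, but by far less. By edgeR's quasi-likelihood test Lig1 was lower in Model than in Ctrl mice (log2 fold change -0.38, SE 0.07, adjusted p = 0.00281), where 32.7% of all genes were called. It was also lower in Ctrl_Swim than in Ctrl mice (-0.37, SE 0.07, adjusted p = 0.0383), where 0.969% were. This second call was lost when any mouse of Ctrl, Ctrl_Swim or Model_Swim was left out (adjusted p up to 0.211) and with the term for the division (0.429). Cabp5, a calcium-binding protein, had at most 0.057 CPM in any library.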
